A study of Arabidopsis thaliana with 12 samples.

Results

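Cell division in plants is driven by cyclin-dependent kinases (CDKs), which are active only when a cyclin is bound. D-type cyclins act with CDKA at entry into the cycle, A-type cyclins act from S phase to early mitosis, and B-type cyclins act in mitosis, together with the plant-specific B-type CDKs. Inhibitors of the KRP family and of the SIM/SMR family bind the kinase complexes and hold them inactive, and plant cells that keep CDK activity low can leave the cycle or go on to copy DNA without dividing. In Arabidopsis embryos most divisions take place before the embryo fills with reserves, and the torpedo stage comes near the end of that phase.

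The transcripts of 43 genes of this machinery were read out of the 33602 genes listed for embryos of *Arabidopsis thaliana*. They were chosen by family name: 10 A-type, 9 B-type and 10 D-type cyclins, 5 kinases of the CDKA and CDKB classes and 9 inhibitors, which are KRP1 to KRP7, SIM and SMR1. Polyadenylated RNA was sequenced from embryos dissected at the torpedo stage, about 150 per sample, with 4 groups of 3 biological replicates from separate crosses. Every mother was a diploid wild-type (wt) Col-0 plant. 3x *nrpd1* embryos had a tetraploid father carrying *nrpd1*, a mutation in the largest subunit of RNA polymerase IV that makes small RNAs. 3x wt embryos had a tetraploid wt father, 2x *nrpd1* embryos a diploid *nrpd1* father and 2x wt embryos a diploid wt father. In crosses of this kind with tetraploid wt pollen the endosperm usually fails to form cell walls, and *nrpd1* pollen restores this, which is the contrast the study was built on. By the labels both 3x groups were collected at 8 days after pollination (DAP) and both 2x groups at 6 DAP, while the study's text gives 6 DAP for 3x *nrpd1*, so the age of that group is uncertain. Ploidy and age cannot be told apart in 3x wt versus 2x wt. If 3x *nrpd1* was collected at 6 DAP, 3x wt was the only group at 8 DAP. Its comparison with 3x *nrpd1* and the interaction below would then also mix in age. If it was collected at 8 DAP, 3x *nrpd1* versus 2x *nrpd1* would mix ploidy and age instead. All embryos carried a wt *NRPD1* copy from the mother, and its transcript was listed at 1.78 to 3.61 RPKM in 3x *nrpd1*, 1.46 to 2.17 in 3x wt, 2.82 to 4.48 in 2x *nrpd1* and 2.42 to 2.69 in 2x wt, so its level does not check the labels.

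Values are RPKM, read counts divided by the length of the transcript and by the size of the library. The depth behind them, estimated from the steps between low values, was about 6851604 to 13602763 reads per library, so that 3 reads over 1000 bp of transcript correspond to 0.221 to 0.438 RPKM. This estimate is well below the numbers of mapped reads that the study lists for its libraries, and the difference was not resolved, so the number of reads behind an RPKM value is uncertain. All 12 embryo markers examined reached a mean of 1 RPKM in every group, and their summed level was 689 to 918 RPKM in 3x *nrpd1*, 823 to 906 in 3x wt, 582 to 772 in 2x *nrpd1* and 557 to 651 in 2x wt. This sum hides opposite changes of single markers. *L1L* was at 457 to 523 RPKM in 3x wt, against 130 to 181 in 2x wt. *LEC1* was at 65.2 to 101, against 140 to 208, and *LEC2* at 6.87 to 8.59, against 13.1 to 22.2. Of 11 endosperm markers 4 reached a mean of 1 RPKM in 3x *nrpd1*, 2 in 3x wt, 2 in 2x *nrpd1* and 3 in 2x wt. Their sum was 23.4 to 78.8 RPKM in 3x *nrpd1*, 85.8 to 94.0 in 3x wt, 56.7 to 66.8 in 2x *nrpd1* and 57.1 to 68.4 in 2x wt, and came mostly from the sucrose transporter gene *SUC5*. *MEA*, *PHE1* and *YUC10* were listed at 0 in both 2x groups and *IKU2* in 2x *nrpd1*. *PHE1* was at 0.994 to 3.70 RPKM in 3x *nrpd1* and 1.22 to 1.96 in 3x wt. This sum too hides opposite changes. *SUC5* was at 82.4 to 91.3 RPKM in 3x wt, against 52.9 to 65.0 in 2x wt. *ALE1* was at 0.0554 to 0.968, against 1.86 to 3.05, and *ZOU* at 0 to 0.65, against 0.874 to 1.44. Of 10 seed coat markers 4 reached a mean of 1 RPKM in 3x *nrpd1*, 5 in 3x wt, 6 in 2x *nrpd1* and 4 in 2x wt. Their sum was 116 to 190 RPKM in 3x *nrpd1*, 276 to 338 in 3x wt, 176 to 197 in 2x *nrpd1* and 161 to 175 in 2x wt, mostly from *SBT1.7*, a subtilase gene of the mucilage layer, while *TT1* was at 0 in all groups but 3x wt and *TT2* in 3x wt and 2x wt. The seed coat sum in 3x wt was thus above all other libraries, and its part in the results below was not tested. Single seed coat markers moved in both directions. *BAN* was at 3.70 to 5.84 RPKM in 3x wt, against 0.260 to 0.647 in 2x wt, and *TT10* at 3.82 to 8.10, against 0.230 to 0.719. *TT12* was lower, at 0.338 to 1.11 in 3x wt, against 1.59 to 2.43 in 2x wt, and so was *TTG2*, at 5.08 to 6.25, against 6.72 to 9.95. *TT1* was listed above 0 only in 3x wt replicate 1, at 0.229 RPKM. 1 library stood apart: the values of 3x *nrpd1* replicate 3 fell with the exon length of the gene (Spearman's rho -0.618 over 18475 genes, against 0.00794 to 0.295 in the other 11 libraries). Counts of called genes that rest on this library are given with and without it.

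Promoters of mitotic cyclins carry the mitosis-specific activator (MSA) element, a site bound by MYB3R factors, whose core is AACGG. The 250 bases before the annotated start are shown for 4 B-type cyclins with several copies of the core, for KRP7, the member with the largest drop in 3x wt, and for CYCA3;2, which dropped almost as far and holds no copy. Capitals mark AACGG on the strand shown or, as CCGTT, on the other strand. The sequences are from the RefSeq copy of TAIR10.1, 5′ to 3′ on the gene's strand, at chr5:1861704-1861953 on the minus strand (first), chr3:3627274-3627523 on the minus strand (next), chr4:16901346-16901595 on the plus strand, chr1:7137829-7138078 on the minus strand, chr1:18366745-18366994 on the minus strand and chr1:17300441-17300690 on the plus strand.
CYCB1;2: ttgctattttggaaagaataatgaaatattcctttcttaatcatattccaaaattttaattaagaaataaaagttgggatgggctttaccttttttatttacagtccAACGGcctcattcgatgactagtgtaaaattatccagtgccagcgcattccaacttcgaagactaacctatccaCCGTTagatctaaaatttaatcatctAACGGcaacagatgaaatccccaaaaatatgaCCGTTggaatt
CYCB1;3: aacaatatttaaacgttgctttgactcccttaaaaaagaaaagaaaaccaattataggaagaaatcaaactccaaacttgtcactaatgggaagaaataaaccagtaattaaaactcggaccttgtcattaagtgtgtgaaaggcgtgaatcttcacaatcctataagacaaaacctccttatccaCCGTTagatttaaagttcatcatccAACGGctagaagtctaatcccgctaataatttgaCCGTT
CYCB2;2: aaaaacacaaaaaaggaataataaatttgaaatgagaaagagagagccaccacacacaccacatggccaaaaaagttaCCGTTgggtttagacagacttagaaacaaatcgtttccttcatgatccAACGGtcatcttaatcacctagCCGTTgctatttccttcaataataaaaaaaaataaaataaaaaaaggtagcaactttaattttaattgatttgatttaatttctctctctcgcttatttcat
CYCB2;3: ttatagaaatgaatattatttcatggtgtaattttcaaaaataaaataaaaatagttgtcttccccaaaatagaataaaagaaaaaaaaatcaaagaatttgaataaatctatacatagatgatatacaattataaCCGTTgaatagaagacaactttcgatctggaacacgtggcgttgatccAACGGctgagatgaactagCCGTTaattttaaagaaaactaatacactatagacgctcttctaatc
KRP7: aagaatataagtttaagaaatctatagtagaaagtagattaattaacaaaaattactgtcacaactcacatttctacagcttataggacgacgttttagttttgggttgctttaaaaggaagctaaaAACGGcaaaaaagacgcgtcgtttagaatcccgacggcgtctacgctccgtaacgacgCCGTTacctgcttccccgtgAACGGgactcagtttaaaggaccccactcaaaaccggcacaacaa
CYCA3;2: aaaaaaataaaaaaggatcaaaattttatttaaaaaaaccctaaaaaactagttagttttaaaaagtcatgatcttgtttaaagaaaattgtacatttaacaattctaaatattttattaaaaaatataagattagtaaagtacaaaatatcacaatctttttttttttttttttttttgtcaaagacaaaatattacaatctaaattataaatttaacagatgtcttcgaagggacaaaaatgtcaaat

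Over the window from 250 bases before to 50 after the start, the MSA core was found on either strand in 8 of the 9 B-type cyclins (88.9%), with 2 or more copies in 7 of them. At least 1 copy was found in 4 of 10 A-type cyclins (40%), 1 of 10 D-type cyclins (10.0%), 1 of 5 CDKs (20%) and 5 of 9 inhibitors (55.6%). Of 27431 protein-coding genes 24.7% held the core in a window of this length and 4.89% held it 2 times or more, against 44.2% and 32.6% of the 43 genes here. CYCB2;4 was the B-type cyclin without a match, and KRP1 had the most copies, 7. E2F sites, bound by the factors that start S phase (TTTCCCGC, TTTGGCGC, TTTCGCGC or TTTGCCGC on either strand), were found in 1.76% of all windows and in 2 of the 43 (4.65%). A match is a stretch of letters and does not show that a factor binds there.

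**Figure D1:**
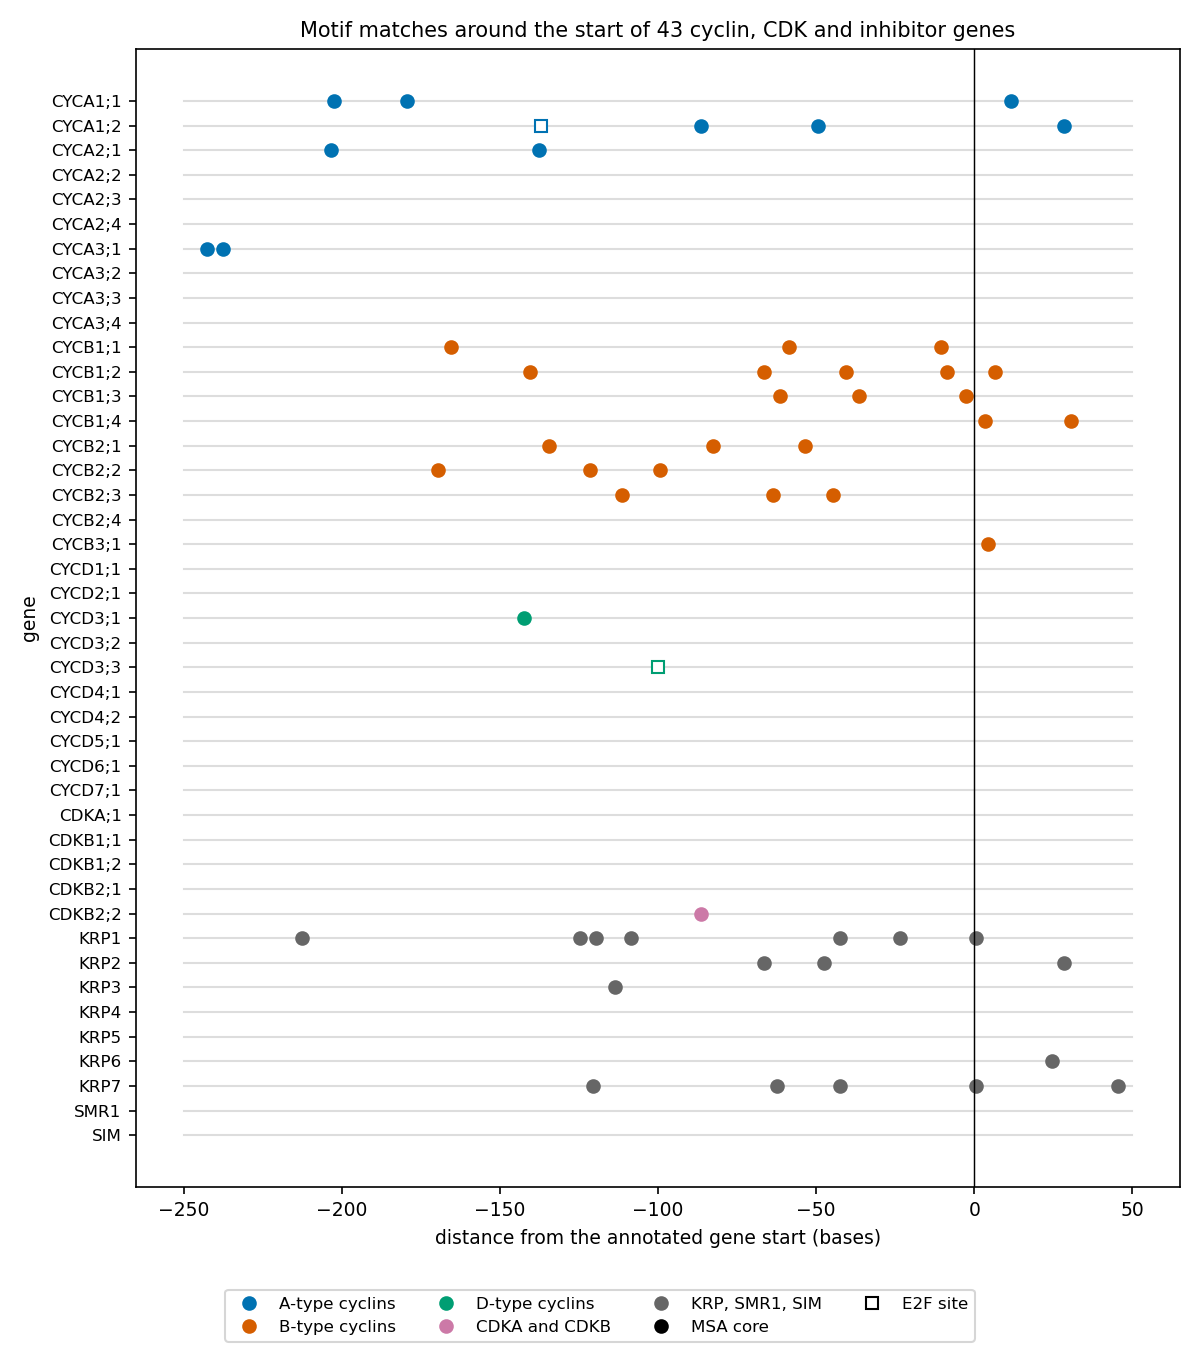
Positions of motif matches around the annotated start of the 43 genes, with 1 row per gene and the distance from the start in bases on the x axis. Filled circles are MSA cores, open squares E2F sites, and colours are families. 8 of 9 B-type cyclins hold at least 1 MSA core, and 1 of 10 D-type cyclins does.

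The first comparison asked how the cell cycle genes stood in triploid embryos of wt fathers. Coordinates below are those of TAIR10.1. In 3x wt no member rose and 20 of the 39 that could be tested fell against 2x wt (limma fit of log2(RPKM + 0.5) values with an adjusted p under 0.05, by Benjamini-Hochberg over all genes tested). The share that fell was 51.3%, against 24.6% of all 17965 genes, while 26.7% of all genes rose. The median log2 fold change of the 39 was -0.48, against -0.01 over all genes. In 24 of the 39 all 3x wt libraries lay below all 2x wt libraries after rescaling, as did 30.0% of all genes. Of the 43, CYCA3;3 and CYCD7;1 were at or near 0 in every library and KRP1 and SIM reached at most 1.11 and 0.553 RPKM in these groups, so these 4 were not tested. In bulk embryos fewer dividing cells and less RNA per dividing cell cannot be told apart. The members' drop is relative to the other genes of the library: with the RPKM as deposited the median of all genes was itself at -0.16 and 27 members fell, where 34.1% of all genes fell and 20.3% rose. With quantile normalization that median was at -0.11 and 26 members fell, where 31.4% of all genes fell and 22.6% rose.

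B-type cyclins fell as a family, 9 of 9. Their summed level was 178.5, 146.3 and 145.5 RPKM in 3x wt, against 263.9, 256.5 and 278.8 RPKM in 2x wt, with no overlap. CYCB1;2 (AT5G06150, chr5:1859279-1861703, minus strand), the most abundant of them, had 60.8, 46.8 and 47.8 RPKM in 3x wt, against 76.3, 77.3 and 83.8 RPKM in 2x wt (log2 fold change -0.45 ± 0.09 SE, adjusted p = 0.00349), the smallest drop of the family. A stretch of 207 bp of this gene is 95.2% identical to AT1G34460, and 179 bp of CYCB2;3 are 99.4% identical to AT1G20590, so the share of reads that came from these genes is uncertain over those stretches. CYCB1;3 (AT3G11520, chr3:3625286-3627273, minus strand) had 13.3, 12.3 and 8.59 RPKM in 3x wt, against 26.8, 27.1 and 24.2 RPKM in 2x wt (-1.02 ± 0.15, adjusted p = 0.0006). CYCB3;1 (AT1G16330, chr1:5582387-5587461, minus strand) fell furthest, with 4.59, 2.20 and 3.22 RPKM in 3x wt, against 9.40, 7.65 and 10.6 RPKM in 2x wt (-1.23 ± 0.22, adjusted p = 0.00139). The other 6 B-type cyclins fell by 0.47 to 0.95 on the log2 scale, among them CYCB1;1, the common marker of G2 and mitosis, which averaged 17.0 ± 0.231 RPKM in 3x wt, against 29.6 ± 2.39 in 2x wt (SD, n = 3 each).

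Of the A-type cyclins 5 of 9 tested fell (55.6%). CYCA3;2 (AT1G47210, chr1:17300691-17302914, plus strand) had 10.0, 7.59 and 7.35 RPKM in 3x wt, against 21.7, 27.6 and 22.4 RPKM in 2x wt (-1.31 ± 0.15, adjusted p = 9.64e-05), with no overlap. CYCA3 cyclins are the S-phase class of the A-type. CYCA1;1 (AT1G44110, chr1:16774765-16777352, minus strand), a cyclin of the M phase and the most abundant A-type cyclin in 2x wt, had 27.9, 21.8 and 21.8 RPKM in 3x wt, against 38.8, 38.2 and 37.0 RPKM in 2x wt (-0.51 ± 0.10, adjusted p = 0.00287). CYCA2;3 (AT1G15570, chr1:5361865-5365559, plus strand), a cyclin that restrains endoreduplication, showed the smallest difference of the family, with 18.0, 14.5 and 14.2 RPKM in 3x wt, against 17.3, 17.5 and 20.7 RPKM in 2x wt, and the groups overlapped (-0.09 ± 0.11, adjusted p = 0.542).

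Of the D-type cyclins 2 of 9 fell (22.2%), which is below the 24.6% of all genes. They were CYCD2;1 (-0.84 ± 0.20, adjusted p = 0.00663) and CYCD6;1 (AT4G03270, chr4:1431844-1433861, minus strand). The second, a cyclin of the formative divisions that pattern the root ground tissue, had 2.95, 3.51 and 2.41 RPKM in 3x wt, against 7.50, 6.67 and 9.55 RPKM in 2x wt (-1.13 ± 0.18, adjusted p = 0.000769). The library kit does not keep the strand, and 847 bp of this gene overlap AT4G03260 on the other strand, which averaged 15.6 ± 0.952 RPKM in 3x wt, against 16.3 ± 1.76 in 2x wt (0.10 ± 0.11, adjusted p = 0.491). The CYCD3 genes, which promote division in young tissues and respond to cytokinin, include the most abundant cyclin of the list. This was CYCD3;2 (AT5G67260, chr5:26836139-26839597, plus strand), which had 121, 105 and 98.1 RPKM in 3x wt, against 140, 156 and 129 RPKM in 2x wt, a difference that did not pass the test (-0.23 ± 0.11, adjusted p = 0.109) but did with the RPKM as deposited (-0.39, adjusted p = 0.0106) and with quantile normalization. CYCD3;1 (AT4G34160, chr4:16357421-16359565, plus strand) had 32.8, 28.4 and 28.2 RPKM in 3x wt, against 32.7, 34.3 and 32.3 RPKM in 2x wt (0.01 ± 0.09, adjusted p = 0.935, and -0.15 with the RPKM as deposited).

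Among the kinases 2 of the 4 B-type CDKs fell and the other 3 kinases did not pass the test. The 2 were CDKB2;2 (-0.55 ± 0.11, adjusted p = 0.00315) and CDKB1;2 (AT2G38620, chr2:16152473-16154086, plus strand), which had 15.3, 13.3 and 11.97 RPKM in 3x wt, against 23.9, 24.6 and 22.4 RPKM in 2x wt (-0.63 ± 0.11, adjusted p = 0.00145). It overlaps AT2G38630 on the other strand over 281 bp, for which the log2 fold change was -0.37 ± 0.16 (adjusted p = 0.0763). CDKB2;1 (AT1G76540, chr1:28720328-28722550, minus strand), the most abundant kinase of the list, had 43.01, 42.1 and 42.3 RPKM in 3x wt, against 49.3, 48.5 and 47.7 RPKM in 2x wt (-0.03 ± 0.08, adjusted p = 0.808). CDKA;1 (AT3G48750, chr3:18071454-18074641, plus strand), the kinase that works throughout the cycle, had 16.8, 16.2 and 18.6 RPKM in 3x wt, against 18.3, 18.3 and 18.1 RPKM in 2x wt (0.08 ± 0.10, adjusted p = 0.543, and -0.08 with the RPKM as deposited).

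The inhibitors did not move as one, and 2 of the 7 tested fell (28.6%, against 24.6% of all genes). KRP7 (AT1G49620, chr1:18365336-18366744, minus strand) had the largest drop of all 39 genes, with 1.78, 2.09 and 1.29 RPKM in 3x wt, against 6.53, 7.39 and 5.23 RPKM in 2x wt (-1.50 ± 0.21, adjusted p = 0.000435). KRP3 (AT5G48820, chr5:19792270-19794480, minus strand), the most abundant inhibitor in 2x wt, had 20.5, 16.8 and 15.5 RPKM in 3x wt, against 37.5, 38.6 and 42.8 RPKM in 2x wt (-0.997 ± 0.103, adjusted p = 7e-05). KRP2 (AT3G50630, chr3:18800306-18801595, plus strand) was low and scattered, with 2.35, 1.23 and 2.68 RPKM in 3x wt, against 1.05, 2.35 and 0.541 RPKM in 2x wt (0.70 ± 0.39, adjusted p = 0.161), and passed the test as higher only without 2x wt replicate 2 (1.09, adjusted p = 0.0403). KRP4, KRP5, KRP6 and SMR1 did not pass, at 0.07, -0.40, 0.03 and -0.55 on the log2 scale.

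Past a 2-fold change as well were 5 of the 39, all lower, and all described above: a single A-type and a single D-type cyclin, 2 B-type cyclins and KRP7. Of all genes 4.85% fell and 11.1% rose by this rule. Of the 20 that fell 13 held the MSA core (65.0%), against 5 of the 19 tested that did not pass (26.3%) and 24.7% of all protein-coding genes. Of these 13, 8 were B-type cyclins, a family in which all 9 fell. The contrast therefore follows family membership in large part, and a link with the core apart from family was not tested. Leaving out any 1 library gave 18 to 22 lower members. CYCB2;1 was the B-type cyclin that lost its call in 3 of these fits, those without 2x wt replicate 3, 3x wt replicate 2 or 3x wt replicate 3.

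**Figure D2:**
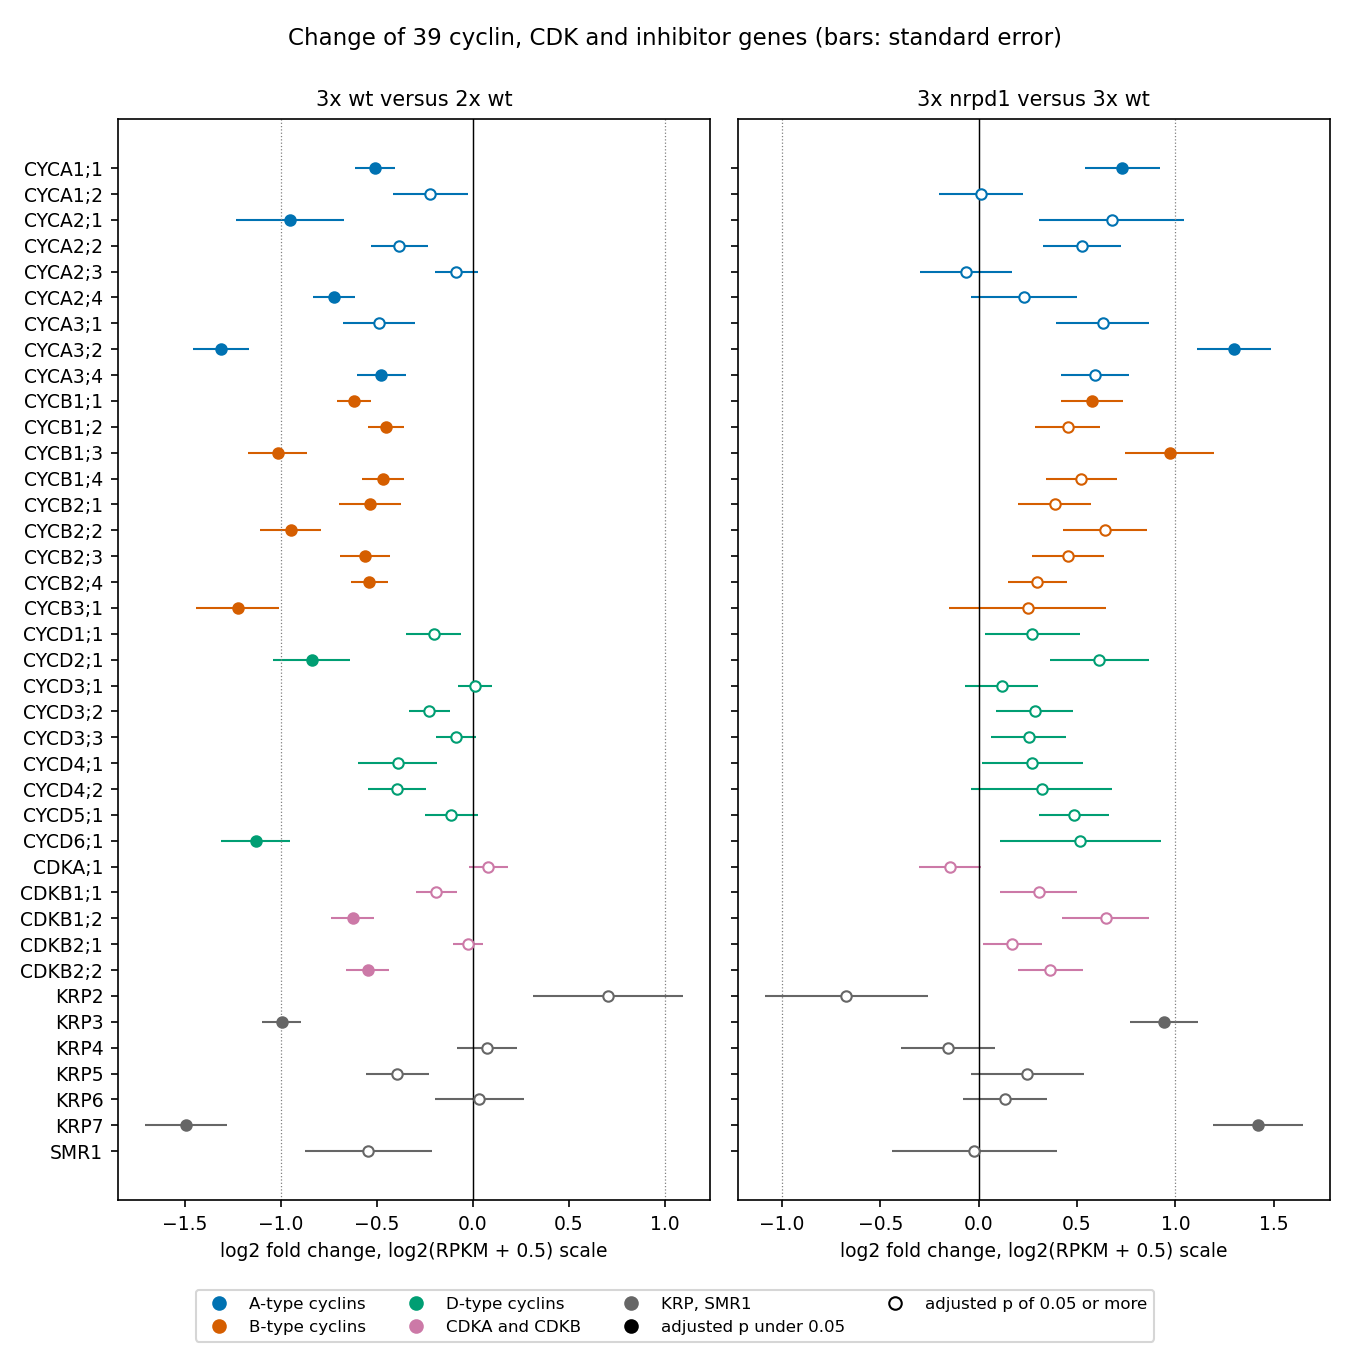
Log2 fold change of the 39 tested genes, with standard errors as bars, in 3x wt versus 2x wt (left) and 3x nrpd1 versus 3x wt (right), both fitted on log2(RPKM + 0.5). Filled points have an adjusted p under 0.05: 20 lie below 0 on the left and 6 above 0 on the right, and all 9 B-type cyclins are below 0 on the left and above it on the right.

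The second comparison asked how the same genes stood when the tetraploid father carried *nrpd1*. In 3x *nrpd1* 6 of 39 members rose and none fell against 3x wt (15.4%). Of all 17913 genes 5.92% rose and 8.46% fell. The 6 were 2 A-type cyclins, 2 B-type cyclins, KRP3 and KRP7. The median log2 fold change of the 39 was 0.37, 34 of the 39 values were above 0, and 16 had an unadjusted p under 0.05, all of them higher. In 19 of the 39 all 3x *nrpd1* libraries lay above all 3x wt libraries, as in 20.5% of all genes. Without 3x *nrpd1* replicate 3 these were 25 of the 39 (64.1%), against 28.6% of all genes, and 25 had an unadjusted p under 0.05, of which 24 were higher. The 3x wt libraries are shared with the first comparison, so the 2 sets of values are not independent of each other.

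CYCA3;2 had 23.3, 19.2 and 19.99 RPKM in 3x *nrpd1*, above the 7.35 to 10.0 RPKM of 3x wt (1.30 ± 0.19, adjusted p = 0.00451). KRP7 had 6.23, 5.48 and 4.41 RPKM in 3x *nrpd1*, against 1.29 to 2.09 RPKM in 3x wt (1.42 ± 0.23, adjusted p = 0.00671). These 2 were the members past a 2-fold change, which 3.18% of all genes passed as higher. KRP3 had 37.8, 31.5 and 31.8 RPKM in 3x *nrpd1*, against 15.5 to 20.5 RPKM in 3x wt (0.94 ± 0.17, adjusted p = 0.0113). CYCB1;3 had 21.2, 21.6 and 23.9 RPKM in 3x *nrpd1*, against 8.59 to 13.3 RPKM in 3x wt (0.97 ± 0.23, adjusted p = 0.0269). In all 4 genes the groups did not overlap. CYCA1;1 had 40.2, 36.6 and 40.9 RPKM in 3x *nrpd1* (0.73 ± 0.19, adjusted p = 0.0391) and CYCB1;1 averaged 25.3 ± 0.914 RPKM there (SD, n = 3, 0.58 ± 0.16, adjusted p = 0.0471).

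Other members had values in 3x *nrpd1* that were higher without passing the test. CYCB1;2 had 80.6, 67.5 and 62.2 RPKM in 3x *nrpd1* (0.45 ± 0.16, adjusted p = 0.104) and CDKB1;2 had 22.1, 18.0 and 23.7 RPKM (0.65 ± 0.22, adjusted p = 0.088), both above every 3x wt library. In others replicate 3 stood apart. CYCB3;1 had 5.80, 6.04 and 1.57 RPKM in 3x *nrpd1* (0.25 ± 0.40, adjusted p = 0.698), so that replicate 3 lay below all 3x wt libraries. CYCD6;1 had 8.25, 5.65 and 1.68 RPKM (0.52 ± 0.41, adjusted p = 0.413), again with replicate 3 lowest. CYCD3;2 had 135, 119 and 136 RPKM, CYCD3;1 44.6, 30.4 and 23.9, CDKB2;1 50.2, 47.3 and 44.8, CDKA;1 15.4, 16.8 and 13.9, CYCA2;3 20.7, 17.4 and 8.63 and KRP2 0.792, 0.690 and 1.85 RPKM in 3x *nrpd1*, with log2 fold changes between -0.67 and 0.29 and adjusted p of 0.301 or more.

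The count of 6 depended on the libraries. Without 3x *nrpd1* replicate 3 it was 15, with 1 member lower (KRP2), while 13.5% of all genes rose and 16.5% fell. Without 3x wt replicate 2 or 3 it was 2 (5.13%), CYCA3;2 and KRP7. Without 3x wt replicate 1 it was 3 (7.69%), those 2 and KRP3. Over all genes the higher calls fell too, from 1060 of 17913. They were 176 of 17452 without 3x wt replicate 2, 200 of 17456 without replicate 3 and 459 of 17433 without replicate 1. In the 39 members the deviation of 3x *nrpd1* replicate 3 followed exon length as in the whole library (rho -0.452): members longer than 1682 bp had a median difference of -0.27 on the log2 scale and the others 0.24. With the length trend removed from every library 7 members rose, the 6 and CDKB1;2, where 1847 of 17837 genes rose.

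**Figure D3:**
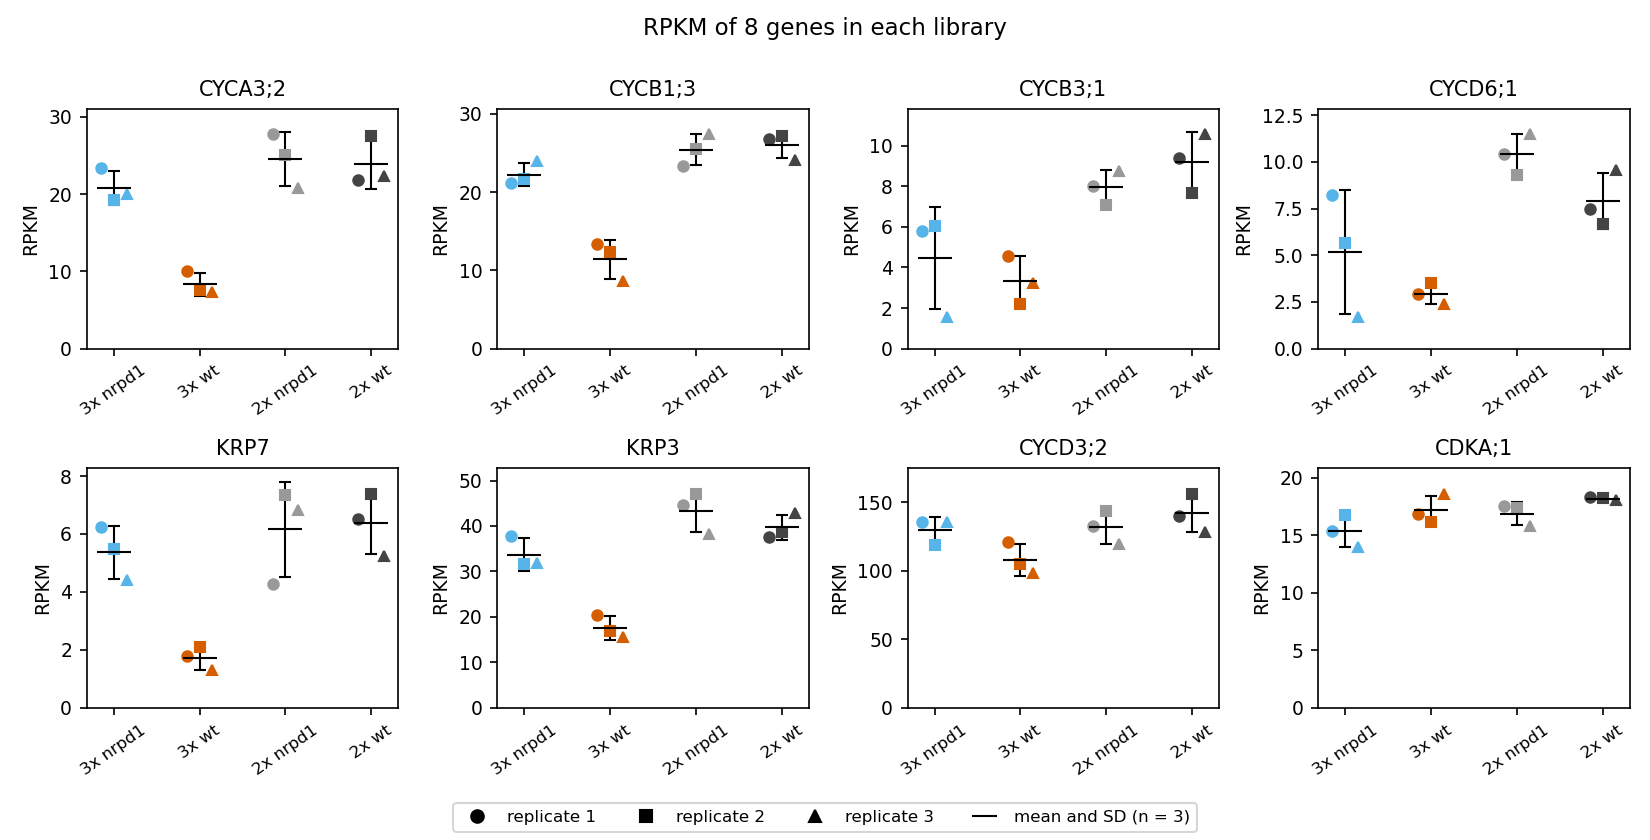
RPKM as deposited for 8 genes, with 1 point per library (circle, square and triangle for replicates 1, 2 and 3) and the mean and SD of each group of 3 as a line and bar, on axes that start at 0. In KRP7 and KRP3, and in the first 2 cyclins, the 3x wt points lie below those of the other 3 groups, while in the next 2 cyclins 3x nrpd1 replicate 3 lies below 3x wt.

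The remaining comparisons set ploidy within *nrpd1* fathers and *nrpd1* within diploids. In 3x *nrpd1* versus 2x *nrpd1* no member passed the test in either direction (median -0.09), where 0.961% of 17585 genes rose and 0.0227% fell. At an unadjusted p under 0.05 there was 1 member, CYCD6;1, which averaged 5.19 ± 3.31 RPKM in 3x *nrpd1* and 10.4 ± 1.09 RPKM in 2x *nrpd1* (SD, n = 3 each, -1.04 ± 0.40, adjusted p = 0.405). CYCB3;1 averaged 4.47 ± 2.51 RPKM in 3x *nrpd1* and 7.94 ± 0.837 RPKM in 2x *nrpd1* (SD, n = 3 each, -0.83 ± 0.37, adjusted p = 0.475). In both genes 3x *nrpd1* replicate 3 was the lowest library, and without it the 3x *nrpd1* means were 6.95 and 5.92 RPKM. With 1 library left out the log2 fold change was -1.42 to -0.54 for CYCD6;1 and -1.07 to -0.36 for CYCB3;1. Of the genes that had risen in 3x *nrpd1* against 3x wt, CYCA3;2 was at -0.10 ± 0.18, CYCB1;3 at -0.06 ± 0.18, KRP3 at -0.23 ± 0.17 and KRP7 at -0.04 ± 0.24, with adjusted p of 0.606 or more. Without 3x *nrpd1* replicate 3 again none of the 38 members tested passed, where 2.40% of all genes rose and 0.317% fell, and 5 members had an unadjusted p under 0.05. The spread of 3x *nrpd1* leaves room for differences of this size, and a test that was not passed does not show that the groups are alike.

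In 2x *nrpd1* versus 2x wt no member passed the test (median -0.01), and neither did any of the 17472 genes (0% higher and 0% lower). With the replicate number as a block 2 genes were higher and 1 lower, and with all 12 libraries in one fit 1 was higher. The study's own count test (DESeq2) reported a small set of differing genes for this contrast, none of them a member here. CYCD6;1 was the 1 member with an unadjusted p under 0.05, with 10.4, 9.30 and 11.5 RPKM in 2x *nrpd1*, against 7.50, 6.67 and 9.55 RPKM in 2x wt (0.41 ± 0.14, adjusted p = 0.838), and the groups overlapped as deposited. The B-type cyclins summed to 260.3 ± 6.10 RPKM in 2x *nrpd1* and 266.4 ± 11.4 RPKM in 2x wt (SD, n = 3 each).

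Whether the change with the tetraploid father differed between wt and *nrpd1* fathers was tested as an interaction over all 12 libraries, with 40 members tested. In 4 the 3x to 2x change was lower with wt fathers: CYCA3;2 (-1.22 ± 0.23, adjusted p = 0.00636), CYCB1;3 (-0.96 ± 0.25, adjusted p = 0.028), KRP3 (-0.77 ± 0.19, adjusted p = 0.0219) and KRP7 (-1.45 ± 0.33, adjusted p = 0.0135). In none was it higher, while 4.96% of 18561 genes were lower and 6.73% higher. 36 of the 40 values were below 0, with a median of -0.37, and all 9 B-type cyclins were among them, from -0.96 to -0.31. Without 3x *nrpd1* replicate 3 the count of 4 was 12, where 9.60% of all genes were lower and 11.7% higher. Without 2x wt replicate 2 or 3x wt replicate 3 it was 2 (5.0%), the A-type cyclin and KRP7. Of all genes 532 of 18501 and 481 of 18238 were lower in these 2 fits, against 920 of 18561 with all libraries.

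**Figure D4:**
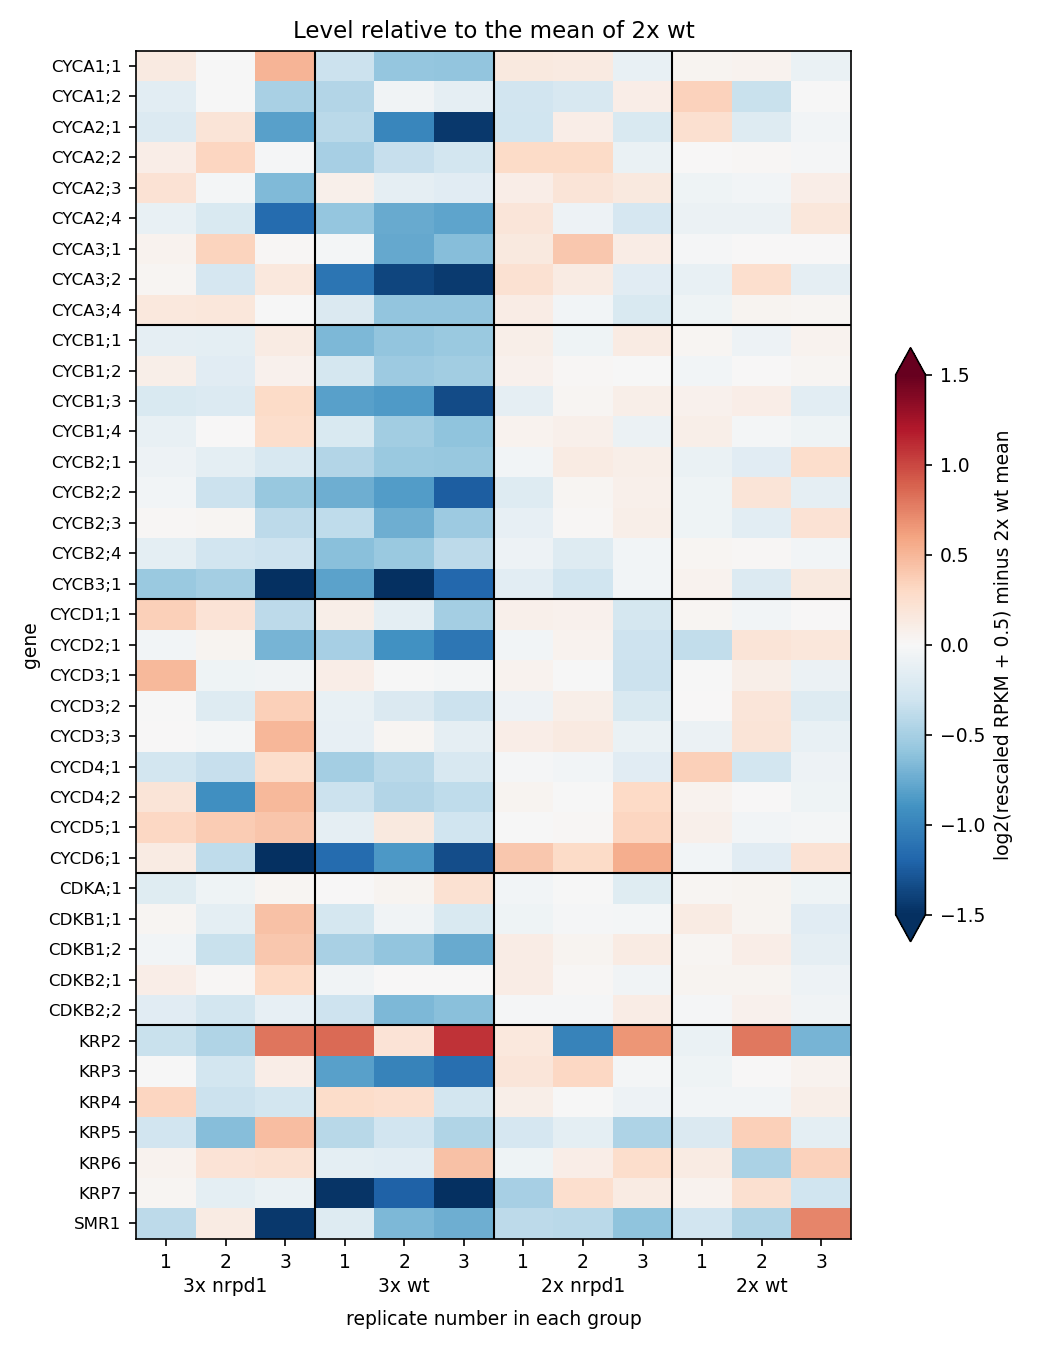
Level of the 39 tested genes in each of the 12 libraries as log2(rescaled RPKM + 0.5) minus the mean of 2x wt, with genes as rows in family order and libraries as columns. Blue is lower and red higher, with values past 1.5 in either direction drawn at the end of the scale. The 3x wt columns are blue in all 9 B-type cyclins, in KRP3 and in KRP7, and 3x nrpd1 replicate 3 is darkest blue in CYCB3;1 and CYCD6;1.

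Other genes of the same pathway were counted from a list of 63, of which 61 were tested in 3x wt versus 2x wt. There 27 fell (44.3%) and 5 rose (8.2%), against the 24.6% and 26.7% of all genes given above, which are also the shares to set beside the groups that follow. The genes of mitosis and cytokinesis fell in 6 of 6 cases, from *AUR2*, an Aurora kinase (-0.35 ± 0.11, adjusted p = 0.0273), to *HINKEL*, a kinesin of the cell plate (-0.78 ± 0.12, adjusted p = 0.000664). Of the genes that license replication origins 7 of 11 fell, with *CDT1B*, a loading factor, lowest (6.23 ± 1.34 RPKM in 3x wt, against 17.3 ± 1.18 in 2x wt, SD, n = 3 each, -1.26 ± 0.14, adjusted p = 0.000117) and *ORC4*, a subunit of the origin recognition complex, highest (0.05 ± 0.12, adjusted p = 0.73, below 0 with the RPKM as deposited and with quantile normalization). Of 18 genes of the anaphase-promoting complex and its regulators 7 fell and none rose, with *APC6* at -0.75 ± 0.13 (adjusted p = 0.00118) and *SAMBA* at 0.46 ± 0.22 (adjusted p = 0.104). Of 9 genes of the retinoblastoma and E2F group 4 fell and 1 rose. *DEL1*, which delays the onset of endoreduplication, was lowest (-1.10 ± 0.20, adjusted p = 0.00183), and *E2FB*, an activating factor, was the one that rose (0.49 ± 0.15, adjusted p = 0.0232).

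Of 8 partners and regulators of CDKs 2 fell (25.0%, close to the share of all genes) and 1 rose, from *CYCH;1* (-0.60 ± 0.16, adjusted p = 0.0137) to *CDKD;2* (0.38 ± 0.12, adjusted p = 0.0222), which together form CDK-activating kinase complexes. Of the 4 MYB3R factors tested *MYB3R4*, an activator of MSA promoters, fell (-0.33 ± 0.11, adjusted p = 0.0351) and *MYB3R3* was highest (-0.13 ± 0.12, adjusted p = 0.402). The calls of *E2FB*, *CDKD;2*, *AUR2* and *MYB3R4* were each lost in 3 or more fits without 1 library.

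The group that went the other way was that of further SMR inhibitors, where 3 of 5 tested rose and none fell. *SMR5*, an inhibitor induced by oxidative stress and DNA damage, had 53.9, 109 and 102 RPKM in 3x wt, against 15.5, 3.75 and 7.53 RPKM in 2x wt (3.53 ± 0.43, adjusted p = 0.000177), with no overlap. AT1G08180 was the lowest of the group (0.36 ± 0.18, adjusted p = 0.121). AT5G40460 was among those that rose, with 17.7, 13.45 and 15.3 RPKM in 3x wt, against 11.4, 11.5 and 14.8 RPKM in 2x wt. Its groups overlapped as deposited. The call of AT5G40460 was lost with the RPKM as deposited, with all 12 libraries in one fit and without 2x wt replicate 1 or 2. AT1G10690, chosen after its values were seen, had 15.7, 20.9 and 20.04 RPKM in 3x wt, against 3.83, 2.16 and 2.81 RPKM in 2x wt (2.67 ± 0.20, adjusted p = 1.27e-05). In 3x *nrpd1* it had 1.61, 2.74 and 3.26 RPKM, below every 3x wt library (-2.68 ± 0.31, adjusted p = 0.00161). *SMR5* had 19.9, 34.2 and 50.7 RPKM in 3x *nrpd1*, also below every 3x wt library, a difference that did not pass the test (-1.34 ± 0.45, adjusted p = 0.0839) but did without 3x *nrpd1* replicate 3 (-1.78, adjusted p = 0.00633). Of the 62 pathway genes tested in 3x *nrpd1*, 3 rose against 3x wt (4.84%), namely *ORC2*, *ORC6* and *CDT1B*, and 2 fell (3.23%), *CDKD;2* and AT1G10690, both below the shares of all genes. Without 3x *nrpd1* replicate 3 there were 15 of 61 that rose (24.6%), among them *RBR1*, *E2FA*, *DEL1*, *APC6*, *KNOLLE* and *HINKEL*, and 4 that fell (6.56%), against 13.5% and 16.5% of all genes.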

How the data were processed

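Embryo RNA of 4 groups was sequenced in 3 replicates each, and all 12 libraries were grouped by their labels. The authors used Trimmomatic for trimming and TopHat2 for mapping to TAIR10, and deposited RPKM per gene, whose total is not given in the sources used here. Replicates were not pooled, and 0 value columns were left unused. Depth was estimated from the steps between low RPKM, but only 29.9 to 40.2% of low values came out as whole reads, so no count test was run.

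RPKM were scaled by the median ratio within each fit, genes were kept that reached 1 RPKM in 3 or more libraries, and log2(RPKM + 0.5) was fitted with limma 3.58.1 (trend, two-sided, Benjamini-Hochberg adjustment) in R 4.3.3 over the 6 libraries compared, or all 12 for the interaction. A fold change on this scale understates the change of low genes. The fits were tested on simulated data. Each p-value sets a group difference against the spread between these replicates, which the fit moderates by a trend over all genes. Promoters and exon lengths came from TAIR10.1 and near-identical stretches (at least 95% identity) from blastn 2.17.0.

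Members and lists were chosen with earlier results of these data known. Named are members past 2-fold in any comparison, the most abundant and the extreme members of each family, CDKA;1, and the extreme genes of each pathway group. AT1G10690, AT5G40460 and *ORC6* were added afterwards. Alternatives were a pseudocount of 0.1 or 1, a filter at a mean of 5 RPKM or none, RPKM as deposited, quantile normalization, removal of the exon-length trend, all 12 libraries in one fit, a replicate block, each library left out and a 2-fold threshold.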

Additional observations from a re-analysis of the deposited data

Results flagged for a closer look

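For 10 genes the change from 2x to 3x embryos differed between wt and *nrpd1* fathers by the interaction over 12 libraries (limma, adjusted p under 0.05). It was lower with wt fathers for CYCA3;2 (-1.22, adjusted p = 0.00636), CYCB1;3 (-0.96, adjusted p = 0.028), KRP3 (-0.77, adjusted p = 0.0219) and KRP7 (-1.45, adjusted p = 0.0135), and among the other pathway genes for *ORC6*, of the origin recognition complex (-1.07, adjusted p = 0.0135), and *CDT1B* (-1.08, adjusted p = 0.00755). It was higher with wt fathers for *E2FB* (1.05, adjusted p = 0.0348), *CDKD;2* (0.83, adjusted p = 0.0291), AT1G08180, listed as SMR2 here (0.93, adjusted p = 0.0421), and AT1G10690, listed as SMR8 (2.57, adjusted p = 0.0158). Over all 18561 genes 6.73% were higher and 4.96% lower by this test, against 6.35% and 3.17% of the 63 other pathway genes. With all 12 libraries the pathway genes listed here were thus no more frequent than genes in general. Without 3x *nrpd1* replicate 3, 5 of 62 pathway genes were higher (8.06%) and 11 lower (17.7%), against 11.7% and 9.60% of all genes. *ORC6* had 11.6, 11.6 and 14.3 RPKM in 3x *nrpd1*, 5.62, 5.38 and 4.57 in 3x wt, 15.9, 14.0 and 15.3 in 2x *nrpd1* and 13.8, 12.8 and 15.6 in 2x wt. CYCA3;2, *ORC6* and *CDT1B* passed under all 20 alternatives run and KRP7 under all 19 that kept it, while AT1G10690 passed under 18 of 20, KRP3 under 15 of 20, CYCB1;3 under 14 of 20, AT1G08180 under 5 of 19, *E2FB* under 10 of 20 and *CDKD;2* under 11 of 20.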

How the results depend on the processing

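The count of members that fell in 3x wt versus 2x wt was 20 and stayed within 18 to 22 when 1 library was left out, while it was 5 when a 2-fold change was also required. No member rose, and leaving out 1 library gave 0 to 1. In 3x *nrpd1* versus 3x wt the count of 6 higher members was 2 past 2-fold. It was 10 with quantile normalization (25.6%) and 15 with all 12 libraries in one fit (37.5%). Of all genes 10.2% rose with quantile normalization and 2541 of 18561 in the fit of all 12 libraries, against 5.92% in the main fit. With 1 library left out the count was 2 to 15, where 0 to 1 were lower. The interaction's count of 4 was 2 past 2-fold, 8 with quantile normalization and 2 to 12 with 1 library left out. Lower calls over all genes moved in the same direction, with 2.77% past 2-fold and 8.60% with quantile normalization, against 4.96% in the main fit. They were 9.60% without 3x *nrpd1* replicate 3, which gave the count of 12. Without 3x wt replicate 3, which gave a count of 2, they were 481 of 18238. The cause of these differences was not tested.

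With the replicate number as a block 20 members fell in 3x wt versus 2x wt, 3 rose in 3x *nrpd1* versus 3x wt and 4 were lower in the interaction. Of all genes 4102 of 17965, 799 of 17913 and 856 of 18561 were called in these directions, against 4413, 1060 and 920 without the block. The replicate numbers were not taken to pair the samples, since in no comparison did all 3 same-numbered pairs of libraries have deviations that correlated above 0.1. The correlations were 0.0358 to 0.0796 in 3x *nrpd1* versus 3x wt, where each library correlated best with its own number, and 0.0285 to 0.26 in 2x *nrpd1* versus 2x wt, and some were negative in the other 2 comparisons.

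Of the named genes that did not pass the test, several changed sign. In 3x wt versus 2x wt CYCD3;1 was at -0.15 with the RPKM as deposited and -0.063 with quantile normalization, and -0.04 to 0.05 with 1 library left out. CDKA;1 was at -0.081 as deposited, and *ORC4* at -0.10 as deposited, -0.007 with quantile normalization and -0.004 to 0.15 with 1 library left out. In 3x *nrpd1* versus 3x wt CYCA2;3 was at 0.008 with quantile normalization and -0.24 to 0.18 with 1 library left out, and CYCD3;1 at -0.05 to 0.22. In 3x *nrpd1* versus 2x *nrpd1* KRP7 was at 0.014 with quantile normalization and -0.27 to 0.11 with 1 library left out, CYCA3;2 at -0.22 to 0.011 and CYCB1;3 at -0.21 to 0.027. CYCD6;1 ranged from -0.58 to 0.28 in the interaction.

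Members under about 2 RPKM, such as KRP2 and SMR1, rest on few reads. This holds for KRP7 in 3x wt as well, with a mean of 1.72 RPKM and an estimated 11 to 23 reads. In the comparisons with 3x wt the filter at a mean of 5 RPKM left KRP7 out. Reads per gene are approximate because the deposited values did not resolve into whole reads.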
